A study of Mus musculus with 6 samples.

Results

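The 5 genes described here are Lrrn1, Lrrn2, Lrrn3, Lrrn4 and Lrrn4cl, the leucine-rich repeat neuronal (Lrrn) family and the gene named for its likeness to Lrrn4. They are 5 of the 26814 gene symbols counted in the top lip of adult female mice, and all 5 passed the filter that left 15009 genes. The family was picked because Lrrn4 went from near 0 in the wild type (WT) to high counts in the Gtf2ird1 knockout (KO), so the change of Lrrn4 is given as a description without a test. The other 4 genes were taken by name. All mice were on a C57BL/6J background. The 3 KO mice carried the targeted allele Gtf2ird1tm1Hrd, a germline mutation that is not limited to the lip, and the 3 WT mice carried no targeted allele. Each mouse gave 1 mRNA library from dissected top lip, a mixed tissue, so fewer cells of a type and less RNA per cell cannot be told apart. The comparison asks which genes change when the transcription factor GTF2IRD1 is lost.

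Lrrn proteins are single-pass membrane proteins whose outer part carries leucine-rich repeats (LRRs), short motifs that form a curved surface for binding other proteins. They were first described in the nervous system, where LRR proteins guide axons and hold synapses together. Lrrn1 helps to set a boundary in the embryonic brain, Lrrn2 was found amplified in human glioma, and the LRRN3 transcript marks naive T cells in human blood. Lrrn4 has been linked to memory in mice and is also used as a marker of mesothelium, the lining of the body cavities.

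The libraries held between 20164081 and 29491767 counts. Levels are CPM, the counts of a gene scaled to library size with TMM factors, and a positive log2 fold change means a higher level in the libraries labelled KO. The targeted gene itself had more counts in the KO libraries, 144 to 166 CPM against 70.2 to 78.2 CPM in the WT (log2 fold change 1.11, SE 0.13, adjusted p = 0.0018, edgeR's quasi-likelihood test). No loss of its transcript was thus seen in the libraries labelled KO. Gene-level counts cannot tell reads of the mutated allele apart from others, so all directions here are for libraries as labelled. The paper describes GTF2IRD1 as able to regulate its own transcription by binding its promoter. It also reports tail biopsies taken to check the genotypes. Whether either bears on these counts was not tested. KO3 weighed heavily on the calls, as leaving it out raised the genes called from 657 higher and 314 lower to 2629 and 2430. The counts of calls without it are given beside those with it. Of the 15009 genes, edgeR's exact test called 1165 higher and 1073 lower, DESeq2 1426 and 1142, and limma-voom 613 and 332. In the quasi-likelihood test 4439 genes had an unadjusted p under 0.05, in either direction. Counts of these kinds given below stand beside these totals. All 10 keratinocyte markers passed the filter, as fits skin. They summed to 26703 to 31121 CPM in WT and 38678 to 52019 CPM in KO libraries, of which Krt1 and Krt10 made up most of the difference, with means of 8019 and 8715 CPM in WT and 18219 and 13574 CPM in KO libraries. The quasi-likelihood test called 2 higher, Ivl and Dsc3, where 4.38% of all tested genes were called higher, and the exact test and DESeq2 called 5 each, limma-voom 3 and the fit without KO replicate 3 4. Not all markers rose, as 3 of the 10, Krt15, Lor and Krt5, had negative fold changes. Krt15 had means of 970 CPM in WT and 758 CPM in KO libraries, and its KO libraries all lay below the WT. The 10 skeletal muscle markers summed to 8859 to 11955 CPM in WT and 3663 to 7396 CPM in KO libraries. All 10 were lower at an unadjusted p under 0.05, and 2 were called lower, where 2.09% of all tested genes were, while the exact test and DESeq2 called 9 each, limma-voom 3 and the fit without KO replicate 3 all 10.

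Lrrn4 (ENSMUSG00000043110.2) lies on the minus strand of chromosome 2, from 132868305 to 132880891 in GRCm38, and has 5 exons, of which 4 are coding. No other gene of the GENCODE annotation overlaps it. The gene structure sets it apart, as Lrrn1, Lrrn2, Lrrn3 and Lrrn4cl have 2 exons each and hold their whole coding sequence in 1 of them. The coding sequences of Lrrn1 to Lrrn4 are close in length, with 2148, 2190, 2121 and 2199 bases, and that of Lrrn4cl is far shorter, with 717 bases. The study's RTqPCR primers for Lrrn4 are shown because they mark a stretch of the transcript that belongs to Lrrn4 alone. The RTqPCR values themselves are not used. The forward primer lies in exon 4 at chr2:132872096-132872117, the reverse primer in exon 5 at chr2:132870816-132870836, and the product of 179 bases on the transcript spans the intron between them. Both lie in coding sequence, each matches the Lrrn4 transcript at 1 place, and neither matches a transcript of another gene.
Lrrn4 forward primer: tcttgtccgtcagtctctttgg
Lrrn4 reverse primer: gcacacattagacaggtggga

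The stretch of 250 bases before the start of Lrrn4 as RefSeq places it is shown because Lrrn4 is the member whose level differed most between the genotypes. The RefSeq start lies downstream of the GENCODE start, so the last bases of the window fall within the first exon of the GENCODE transcript. It is the window of GRCm38.p6 at chr2:132880863-132881112, read on the minus strand. The window of the lincRNA gene AU019990, whose transcript was also near absent in the WT, lies at chr2:132597946-132598195 on the plus strand.
Lrrn4 promoter: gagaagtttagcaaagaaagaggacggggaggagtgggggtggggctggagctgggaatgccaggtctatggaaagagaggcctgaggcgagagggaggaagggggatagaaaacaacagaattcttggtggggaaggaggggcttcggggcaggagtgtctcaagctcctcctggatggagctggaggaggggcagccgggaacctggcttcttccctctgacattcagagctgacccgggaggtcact
AU019990 promoter: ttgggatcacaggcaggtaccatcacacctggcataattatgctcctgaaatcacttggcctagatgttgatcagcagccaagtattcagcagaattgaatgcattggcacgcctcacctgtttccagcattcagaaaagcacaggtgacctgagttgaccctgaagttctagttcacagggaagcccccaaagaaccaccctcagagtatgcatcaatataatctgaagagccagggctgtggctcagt
The letters GGATTA, a sequence that GTF2IRD1 is known to bind, were searched on both strands of each window with the 50 bases after the start included. Neither window held them, and so no base is in capitals. Only these exact letters were searched, so other sequences that GTF2IRD1 may bind were not looked for. Of all 32851 promoter windows of that length, 7.06% held GGATTA on either strand. The windows of Lrrn1 and Lrrn2 held none either. For Lrrn3 and Lrrn4cl no window was used here.

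Lrrn4 had 3 counts in WT1, 3 in WT2 and 4 in WT3, and 2093 in KO1, 3200 in KO2 and 1359 in KO3. In CPM these were 0.109, 0.128 and 0.180 in the WT and 107, 105 and 62.1 in the KO. The WT libraries all held reads of Lrrn4, but only at or just above 3 counts, the floor used here for genes without reads. Every KO library lay far above them and the groups did not overlap. The means were 0.139 ± 0.0368 CPM in WT libraries and 91.5 ± 25.4 CPM in KO libraries (SD, n = 3 mice each). KO1 and KO2 were almost equal and KO3 had 58.5% of their mean. Summed over the libraries, 10 counts in the WT and 6652 in the KO gave a CPM ratio of 679, with an exact 95% binomial interval of 369 to 1416 that covers counting error only. The fitted log2 fold change was 9.33 (SE 0.35), which depends on the prior count at so few WT reads. It was the 12th highest of the 15009 tested genes.

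Lrrn4 ranked 18326 to 18979 among the 26814 symbols in the WT libraries, level with or above 29.2% to 31.7% of them. Tied symbols shared the best rank, so at these low counts the share strictly below Lrrn4 is smaller. It ranked 1936 in KO1, 2019 in KO2 and 3537 in KO3, level with or above 92.8%, 92.5% and 86.8% of the symbols. Of the tested genes, 56 had at most 4 counts in every WT library, and Lrrn4 had the highest mean KO level of these 56. That bound is the highest WT count of Lrrn4 itself, and the family was picked for the KO level of Lrrn4. Such genes passed the filter only through the KO libraries, so this place is a description.

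**Figure D1:**
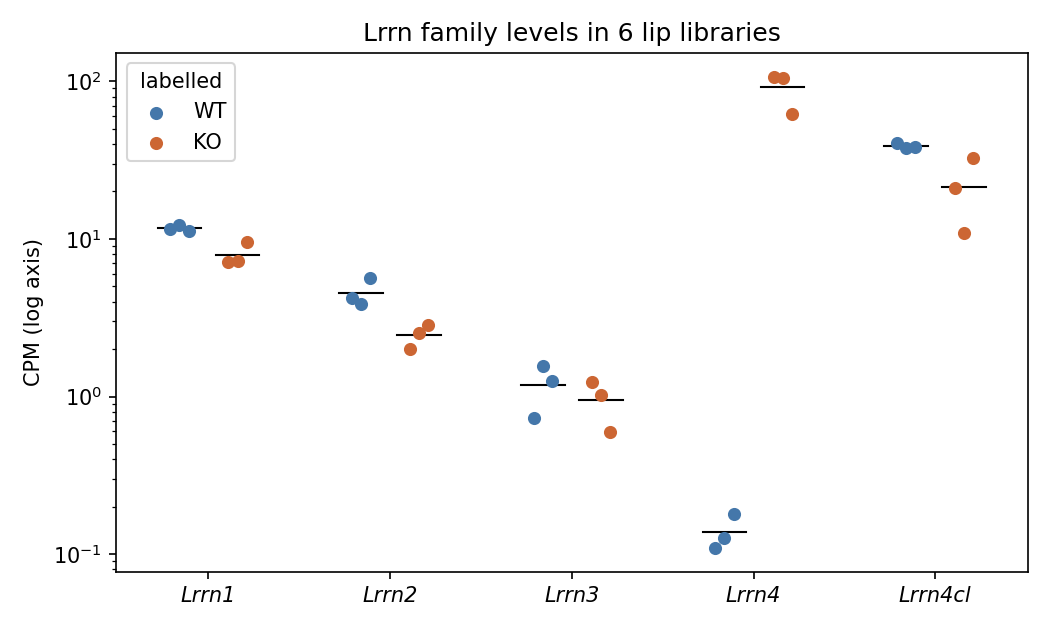
CPM of the 5 genes on a log axis in the 3 WT (blue) and 3 KO (orange) libraries, each point 1 library and each line a group mean. Lrrn4 moves from 0.109 to 0.180 CPM in the WT to 62.1 to 107 CPM in KO libraries, while the KO points of Lrrn1, Lrrn2 and Lrrn4cl lie below the WT points and those of Lrrn3 overlap them.

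None of the other family members was called higher. In edgeR's quasi-likelihood test none of the 4 was called at an adjusted p under 0.05, where 6.47% of all tested genes were called, 4.38% higher and 2.09% lower. With an unadjusted p under 0.05, 3 of the 4 were lower, and edgeR's exact test and DESeq2 each called 2 lower while limma-voom called 0. Of all 15009 tested genes, 4439 had an unadjusted p under 0.05, in either direction. Over the same 15009 genes the exact test called 1073 lower, DESeq2 1142 and limma-voom 332. All 4 fitted fold changes were negative, as were those of 52% of all tested genes, and the KO libraries lay below the WT libraries without overlap in 3 of the 4. Of all tested genes, 31.5% had groups that did not overlap, 18.1% with the KO below the WT.

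Lrrn1, the gene with the boundary role in the embryonic brain (chromosome 6, 107529768 to 107570214), stood at 11.5 CPM in WT1, 12.3 in WT2 and 11.2 in WT3, and at 7.11 in KO1, 7.20 in KO2 and 9.51 in KO3. All KO values were below all WT values, and KO3 was the nearest to the WT. The mean was 11.7 ± 0.566 CPM in WT and 7.94 ± 1.36 CPM in KO libraries (SD, n = 3 mice each), so that the KO mean was 67.9% of the WT mean. The difference was not called (log2 fold change -0.56, SE 0.18, adjusted p = 0.0901, edgeR's quasi-likelihood test). DESeq2 gave an adjusted p of 0.0476, and leaving out KO replicate 3 gave 0.0117.

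Lrrn2 (chromosome 1, 132880273 to 132940005) was lower in level, with 4.21 CPM in WT1, 3.87 in WT2 and 5.62 in WT3, and 2.0 in KO1, 2.53 in KO2 and 2.84 in KO3. The groups did not overlap. The mean was 4.57 ± 0.929 CPM in WT and 2.45 ± 0.425 CPM in KO libraries, and the KO mean was 53.7% of the WT mean. The difference was not called (log2 fold change -0.89, SE 0.24, adjusted p = 0.0643, edgeR's quasi-likelihood test). The adjusted p was 0.0227 in edgeR's exact test, 0.0217 in DESeq2 and 0.0156 without KO replicate 3. Gm44300 overlaps Lrrn2 on the opposite strand and was not analysed here, and whether counting used the strand is not given in the sources used here.

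Lrrn3 (chromosome 12, 41451668 to 41486431) was close to the filter of 1 CPM. Its level was 0.726 CPM in WT1, 1.57 in WT2 and 1.26 in WT3, and 1.23 in KO1, 1.02 in KO2 and 0.594 in KO3. The groups overlapped, and with 13 to 37 counts a library the fitted log2 fold change of -0.31 (SE 0.39) had a 95% interval of -1.07 to 0.45 (adjusted p = 0.612, edgeR's quasi-likelihood test), so no difference was detectable at this depth. Lrrn3 lies inside Immp2l, which encodes a mitochondrial inner membrane peptidase on the opposite strand and had 1.79 to 2.32 CPM in WT libraries and 1.15 to 1.69 CPM in KO libraries. T cell markers summed to 13.6 to 18.9 CPM in WT libraries and 18.3 to 29.6 CPM in KO libraries, with 0 of 6 tested genes called. Their unadjusted p was under 0.05 in 2 of the 6, both higher, while the exact test, DESeq2 and limma-voom called 0.

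Lrrn4cl (chromosome 19, 8850768 to 8853909) had the highest level of the family in the WT. Its level was 40.8 CPM in WT1, 37.6 in WT2 and 38.5 in WT3, and 20.9 in KO1, 11.0 in KO2 and 32.4 in KO3. The WT libraries were tight and the KO libraries were spread widely below them, with KO3 at 83.2% of the WT mean. The mean was 39.0 ± 1.61 CPM in WT and 21.4 ± 10.7 CPM in KO libraries, and the KO mean was 55.0% of the WT mean. The difference was not called (log2 fold change -0.86, SE 0.33, adjusted p = 0.134, edgeR's quasi-likelihood test). The adjusted p was 0.0389 in edgeR's exact test, and leaving out KO replicate 3 moved the log2 fold change to -1.29 (adjusted p = 0.00466).

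Fibroblast markers were read beside Lrrn4cl. Their summed level was 7183 to 9310 CPM in the WT, 3173 CPM in KO1, 3979 CPM in KO2 and 7451 CPM in KO3, so that KO3 lay within the WT range while Lrrn4cl in KO3 lay below it. The collagen genes Col1a1, Col1a2 and Col3a1 made up most of the sum, and for these KO1 was the lowest and KO3 the highest KO library. Dcn, a matrix proteoglycan, differed in that, with 663 CPM in KO1, 656 in KO2 and 568 in KO3, and so did Lum, another one, with 91.5, 88.8 and 86.5 CPM. Of the 11 markers, all tested, 10 had negative fold changes, and the quasi-likelihood test and limma-voom called 0 while 4 had an unadjusted p under 0.05 and the exact test and DESeq2 each called 2 lower. Without KO replicate 3, 7 were called lower, where 2430 of all 15009 tested genes were. Their part in the level of Lrrn4cl was not tested. Of the 50-base words in Lrrn4cl transcripts, 3.19% also occur in transcripts of other genes, whereas those of Lrrn1, Lrrn2, Lrrn3 and Lrrn4 share 0 words.

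Levels of different genes can be compared only per length, here as CPM per kb of merged exons. In the WT the order was Lrrn4cl with 15 CPM per kb, Lrrn1 with 3.16, Lrrn2 with 1.27, Lrrn3 with 0.307 and Lrrn4 with 0.0374. In the KO it was Lrrn4 with 24.6 CPM per kb, Lrrn4cl with 8.25, Lrrn1 with 2.15, Lrrn2 with 0.683 and Lrrn3 with 0.245. In neither genotype did the libraries of neighbours in this order overlap. Lrrn4 thus moved from the last to the first place, and the order of the other four was the same in both genotypes.

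**Figure D2:**
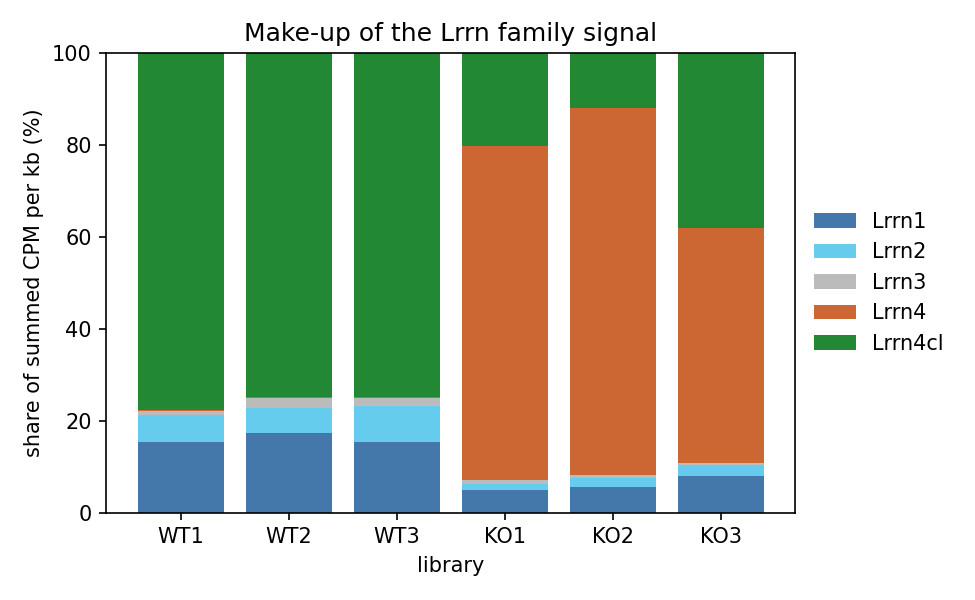
Share of each gene in the summed CPM per kb of the 5 genes, in percent, 1 bar per library. Lrrn4 makes up 0.145% to 0.245% in the WT and 51.1% to 79.9% in the KO, and the share of Lrrn4cl goes from 74.9% to 77.7% in the WT to 11.9% to 38.1% in the KO. Lrrn4 is part of the sum, so its higher level lowers the other shares. Lrrn4cl itself had means of 15 CPM per kb in WT and 8.25 in KO libraries.

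Lrrn4 is used as a mesothelial marker, so other mesothelial genes were read beside it. Of 14 such markers 12 were counted and 7 were above the filter. The summed level of the 12 was 68.3 to 78.3 CPM in WT libraries and 51.7 to 57.5 CPM in KO libraries. Bnc1 alone made up most of this sum, with means of 43.9 CPM in WT and 34.9 CPM in KO libraries. The sum thus mainly reads Bnc1 and is not taken as a level of mesothelium. None of the 7 above the filter was called (edgeR's quasi-likelihood test), all 7 had negative fold changes, 2 had an unadjusted p under 0.05, and DESeq2 called 1, lower, while the exact test and limma-voom called 0. Without KO replicate 3, 1 was called lower. Mesothelin (Msln), a surface protein of mesothelium, had 0.944 to 1.45 CPM in WT libraries and 0.756 to 1.33 CPM in KO libraries, and Upk3b was at or below 0.0899 CPM in every library. Wt1 and Muc16 were not among the counted gene symbols.

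Few neuron markers were detected, and their summed level was 41.3 to 55.2 CPM in WT and 39.0 to 45.2 CPM in KO libraries. Of 13 counted, 3 passed the filter and the quasi-likelihood test called 0 of them. The same held for the exact test, DESeq2 and limma-voom, and 1 had an unadjusted p under 0.05. Without KO replicate 3, 1 was called lower. The 3 that passed were Tubb3, Stmn2 and Trpv1. Tubb3 alone made up most of the sum, with means of 37.0 CPM in WT and 33.3 CPM in KO libraries. Stmn2 had means of 8.04 CPM in WT and 5.60 CPM in KO libraries, and Trpv1 was at or below 2.85 CPM in every library. Among those below the filter, Rbfox3, a nuclear protein of mature neurons, was at or below 0.128 CPM in every library. Snap25, a protein of synaptic vesicle release that was also below the filter, was at or below 0.183 CPM. The 10 Schwann cell markers summed to 551 to 589 CPM in WT and 423 to 530 CPM in KO libraries, and 0 were called by the quasi-likelihood test and limma-voom, 1 by the exact test and by DESeq2, lower, and 5 lower without KO replicate 3, with 4 at an unadjusted p under 0.05. The 10 hair follicle markers summed to 5156 to 6199 CPM in WT and 3329 to 4283 CPM in KO libraries. All 10 were lower at an unadjusted p under 0.05, and 2 were called lower, where 2.09% of all tested genes were, while the exact test called 4, DESeq2 6, limma-voom 2 and the fit without KO replicate 3 6. Their part in the levels of the family was not tested.

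Lrrn4 was not the only gene of its stretch of chromosome 2 to appear in the KO. Within 500 kb of Lrrn4, 17 other genes were counted and 8 passed the filter. Of these 8, 2 were called higher and 0 lower. Both passed the filter only through the KO libraries, as Lrrn4 did, so this count is a description and is not read against the share over all genes, and their levels are given without a test. The called genes were AU019990 and Rpl23a-ps4, which lie next to each other on the plus strand.

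AU019990, a lincRNA gene of unknown function (132598195 to 132653068), ends 215.2 kb from Lrrn4. Its level was 0.290 CPM in WT1, 0.553 in WT2 and 0.315 in WT3, and 42.1 in KO1, 35.2 in KO2 and 15.4 in KO3. Its KO mean was 80.0 times its WT mean (fitted log2 fold change 6.31, SE 0.48), and the log2 fold change was 6.08 to 6.65 with each library left out in turn. As in Lrrn4, KO1 and KO2 were the high libraries and KO3 was lower, at 39.8% of their mean.

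Rpl23a-ps4, a processed pseudogene of a ribosomal protein gene (132662242 to 132662696), had 0 counts in all WT libraries and 168, 149 and 44 counts in KO1, KO2 and KO3. These were 8.60, 4.90 and 2.01 CPM, at least 41.8-fold higher in the mean than 3 counts in each WT library. Pseudogenes can share reads with their parent gene and its other copies, and 0.246% of its 50-base words occur in transcripts of other genes, as do 3.61% of those of AU019990.

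**Figure D3:**
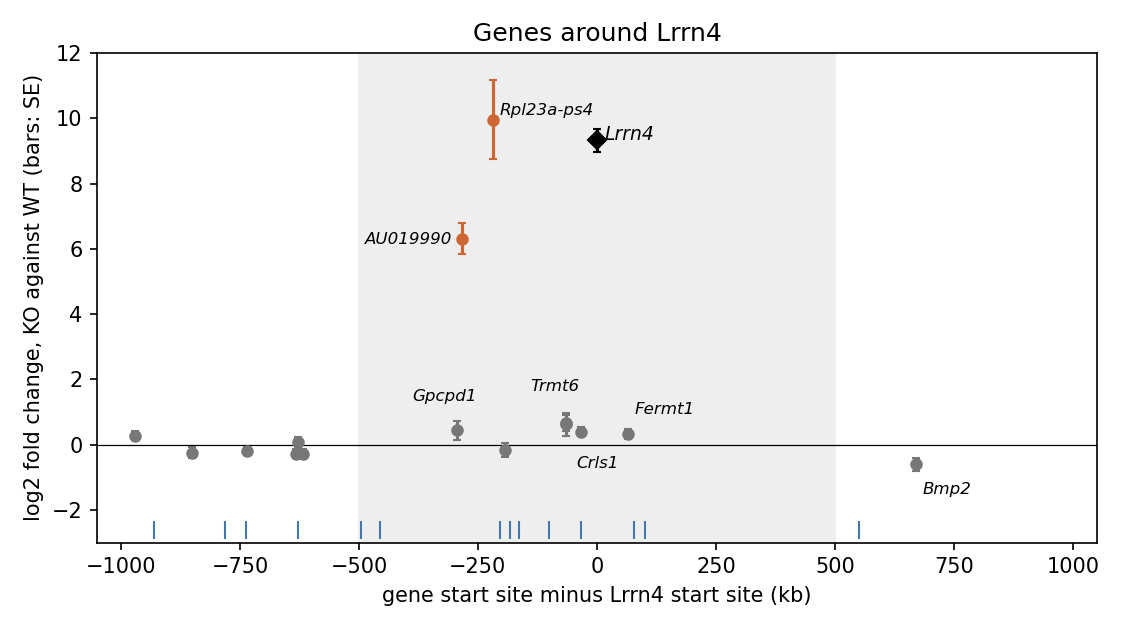
Log2 fold change, KO against WT, of genes within 1000 kb of Lrrn4 by the distance of their start from the start of Lrrn4 in kb. Points are tested genes with the standard error (orange, called higher; grey, not called; black diamond, Lrrn4, without a test), ticks are genes below the filter, and the grey band is 500 kb on each side. AU019990 at 6.31 and Rpl23a-ps4 at 9.96 stand with Lrrn4 at 9.33, and all other tested genes lie between -0.61 and 0.65.

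The other 6 tested genes of the window had log2 fold changes from -0.16 to 0.65, and none was called. Crls1, the cardiolipin synthase gene that ends 1.5 kb from Lrrn4, had 14.8 to 17.6 CPM in WT libraries and 20.9 to 21.9 CPM in KO libraries (log2 fold change 0.40, SE 0.14, adjusted p = 0.11, edgeR's quasi-likelihood test). The groups did not overlap. Fermt1, an integrin activator of keratinocytes that lies 23.5 kb away, had 30.1 to 40.9 CPM in WT libraries and 43.1 to 50.7 CPM in KO libraries (adjusted p = 0.189). Trmt6, a tRNA methyltransferase subunit, had a log2 fold change of 0.65 and Mcm8, a DNA helicase, of 0.62, with adjusted p-values of 0.124 and 0.272. Gpcpd1, a phosphodiesterase gene next to AU019990, had 0.44 (adjusted p = 0.34), and 1110034G24Rik, now named Shld1 for its part in DNA repair, had -0.16 (adjusted p = 0.656). Without KO replicate 3, 4 of the 8 were called higher, Trmt6 and Gpcpd1 being the additional ones. Such calls were common in that fit, which called 2629 of all 15009 tested genes higher. Chgb, a neuroendocrine granule protein gene 73.2 kb from Lrrn4, stayed below the filter, with 0.298 to 0.585 CPM in WT libraries and 0.274 to 0.358 CPM in KO libraries.

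Windows of the same size were read around the other members. Around Lrrn4cl, 25 genes were tested and 0 called, around Lrrn2 1 of 12 was called, lower, and around Lrrn1 and Lrrn3 1 gene each was tested and not called. The median log2 fold changes around Lrrn2 and Lrrn4cl were -0.22 and -0.05. These windows were not tested against each other.

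Genes whose level followed Lrrn4 most closely over the 6 libraries were ranked by Pearson's r of log2 CPM, given as a description. With the genotypes so far apart, r mostly measures the difference between them, and 786 of 15008 tested genes had an r of 0.9 or more. The 5 highest, with r from 0.9993 to 0.9996, were Sp110, Gm15753, B020031M17Rik, Xpnpep1 and Echdc3, on chromosomes 1, 5, 13, 19 and 2. Sp110, a nuclear body protein induced by interferon, had 3.30 to 5.76 CPM in WT libraries and 1181, 1145 and 622 CPM in KO1, KO2 and KO3, with KO3 the lowest of the KO libraries as in Lrrn4. Gm15753 had 0.218 to 0.315 CPM in WT libraries and 99.5, 109 and 52.4 CPM in KO libraries. B020031M17Rik had 0 counts in every WT library and 3.48 to 4.45 CPM in KO libraries. Xpnpep1, a cytosolic aminopeptidase, differed by a smaller factor, with 58.0 to 61.3 CPM in WT libraries and 142 to 154 CPM in KO libraries, and Echdc3 had 4.55 to 5.53 CPM in WT libraries and 86.2 to 126 CPM in KO libraries.

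The wider class of LRR membrane proteins was read from 3 lists with 50 genes. Of these, 48 were counted and 26 passed the filter, and 1 was called higher and 1 lower. These shares of 3.85% each stand beside 4.38% higher and 2.09% lower among all tested genes. The median log2 fold change of the 26 was -0.34 against -0.02 over all tested genes, and 18 of them (69.2%) were negative. The exact test called 3 higher and 4 lower, DESeq2 4 and 6, limma-voom 1 and 0, and the quasi-likelihood test without KO replicate 3 called 4 and 8. Over all 15009 tested genes these called, in the same order, 1165 and 1073, 1426 and 1142, 613 and 332, and 2629 and 2430.

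Among the synapse organisers, 6 of 20 genes passed the filter and none was called by the quasi-likelihood test, with 1 at an unadjusted p under 0.05. That gene was Slitrk6, which is needed for sensory innervation of the inner ear. It had 12.6 to 17.5 CPM in WT libraries and 43.0 CPM in KO1, 46.6 in KO2 and 16.0 in KO3 (log2 fold change 1.16, SE 0.37, adjusted p = 0.0901). KO1 and KO2 lay above the WT and KO3 among the WT libraries, and its adjusted p was 0.00686 in the exact test. It was also called higher without KO replicate 3. Lrfn4 and Lrrc4, both postsynaptic adhesion proteins, had log2 fold changes of 0.08 and -0.05.

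Among the genes of axon growth and guidance, 11 of 15 passed the filter and 1 was called. Flrt1, a fibronectin-LRR protein that takes part in FGF signalling, fell from 9.22 ± 2.33 CPM in the WT (SD, n = 3 mice) to 4.94 ± 0.279 CPM in KO libraries (log2 fold change -0.90, SE 0.22, adjusted p = 0.049 from the model fitted in edgeR). Of the fits that left out 1 library, it was called only in the one without KO replicate 3. Flrt3, its relative with a part in cell adhesion, had 55.9 ± 11.0 CPM in WT and 104 ± 26.2 CPM in KO libraries (log2 fold change 0.90, SE 0.22, adjusted p = 0.0558), and its groups did not overlap. It was called higher without KO replicate 3. Flrt2 had 46.7 ± 6.67 and 42.8 ± 6.88 CPM (log2 fold change -0.12). The Nogo receptor genes Rtn4r and Rtn4rl1, which take up myelin signals that stop axons, had -0.76 and -0.88, and Islr2, an axon guidance gene, had -0.94, with adjusted p-values of 0.0665, 0.0829 and 0.0722, and all 3 were called lower without KO replicate 3. Amigo1, another adhesion protein of axons, had -0.17.

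Among the genes of growth factor signalling and the rest, 9 of 15 passed the filter. Ntrk2, the receptor of the neurotrophin BDNF, rose from 124 ± 7.64 CPM in the WT (SD, n = 3 mice) to 183 ± 18.0 CPM in KO libraries (log2 fold change 0.55, SE 0.13, adjusted p = 0.0462 from the model fitted in edgeR), and with each library left out in turn it was called only without KO replicate 3. Ntrk3, its relative for neurotrophin 3, had a log2 fold change of -0.70 (adjusted p = 0.0834). Lrrc15, a marker of matrix-forming fibroblasts and the member with the highest level per kb, had 474 ± 14 CPM in WT libraries and 319 ± 56.7 CPM in KO libraries (log2 fold change -0.57, adjusted p = 0.0717). Islr, also expressed by fibroblasts, had -0.77, and both were called lower without KO replicate 3. Lrig1, a brake on EGF receptor signalling, had 0.14.

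**Figure D4:**
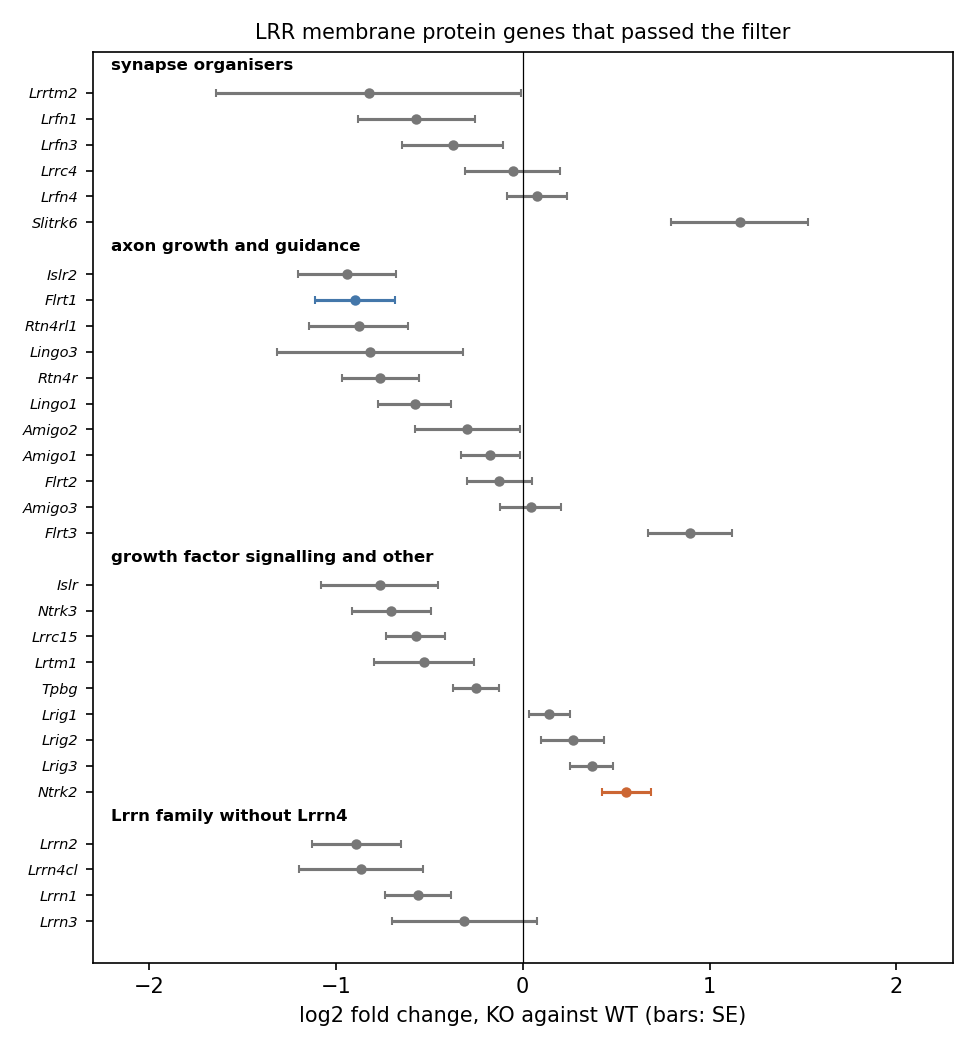
Log2 fold changes, KO against WT, with standard errors, of the 26 LRR genes that passed the filter, by list, and of the Lrrn family without Lrrn4. Ntrk2 (orange) was called higher and Flrt1 (blue) lower, and the grey genes were not called; Lrrn1, Lrrn2, Lrrn3 and Lrrn4cl lie between -0.89 and -0.31, within the range of the lists.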

How the data were processed

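Top lip tissue of 3 WT and 3 KO mice gave 1 library each. Per the methods and the submitters' processing notes, the authors aligned read pairs with TopHat2 2.0.8, which calls Bowtie2 2.1.0, against GRCm38 and deposited the counts of reads that HTSeq assigned uniquely to each gene, without normalization. Counting mode and strand setting are not given in the sources used here.

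The filter kept 15009 genes that reached 1 CPM in 3 or more of the libraries. edgeR 4.0.16 in R 4.3.3 was used with TMM scaling, glmQLFit and glmQLFTest, and p-values were adjusted by the Benjamini-Hochberg method across the 15009 genes (threshold 0.05). The study's exact test, DESeq2 1.42.0 and limma-voom (limma 3.58.1), 3 other scalings, 2 other filters, the older quasi-likelihood fit, a block for replicate number and fits without each library on the same genes were alternatives. log2 CPM for correlations used a prior count of 0.5. The fit was tested on simulated data. A count of 3 was 0.0986 to 0.154 CPM. The binomial interval and the floors cover counting error only. The interval of Lrrn3 comes from the SE of the fit with a normal quantile, so it includes the spread between mice. The p-values set the difference between the genotypes against the spread between mice of the same genotype.

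The members and lists were chosen with earlier results of these data known. Named genes are the members, Gtf2ird1, tested neighbours within 500 kb of Lrrn4, called and highest LRR genes, and the 5 genes most like Lrrn4. The neuron, keratinocyte and fibroblast markers, Msln, Upk3b, Bnc1, Chgb and Immp2l were named after their values were seen. So were the LRR genes that were neither called nor highest. Positions, exon lengths and neighbours come from GENCODE M21 (GRCm38), in which 24858 symbols matched by name and 1241 by a RefSeq synonym. Promoters are RefSeq windows of GRCm38.p6, and primers come from the study's primer list. Figures were drawn with matplotlib 3.10.9.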

Additional observations from a re-analysis of the deposited data

How the results depend on the processing

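No member changed direction under any alternative. Without 1 library in turn, the log2 fold change of Lrrn1 ranged from -0.71 to -0.43, of Lrrn2 from -0.999 to -0.715, of Lrrn3 from -0.58 to -0.05, of Lrrn4 from 9.17 to 9.55 and of Lrrn4cl from -1.29 to -0.51. Lrrn1, Lrrn2 and Lrrn4cl passed the threshold only without KO replicate 3 among these, and further with DESeq2 (Lrrn1 at -0.53, Lrrn2 at -0.86) or edgeR's exact test (Lrrn2 at -0.89, Lrrn4cl at -0.86). Over the other alternatives the adjusted p ranged from 0.0476 to 0.171 for Lrrn1, 0.0217 to 0.0898 for Lrrn2 and 0.0389 to 0.159 for Lrrn4cl. The cause was not tested.

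Genes called higher (657) came to 1165 with the exact test and 1426 with DESeq2, and to 318 to 2629 without 1 library. Genes called lower (314) came to 1073 and 1142 with these tests, to 207 with RLE size factors, to 204 without a filter and likewise with at least 10 counts in every library, and to 23 to 2430 without 1 library. The 1 LRR gene called higher became 3 with the exact test, 4 with DESeq2 and 0 with library size alone, with upper-quartile factors or with at least 10 counts, and 0 to 4 without 1 library. The 1 called lower became 4 with the exact test, 6 with DESeq2 and 0 with limma-voom, the older fit, RLE, no filter or at least 10 counts, and 0 to 8 without 1 library. The highest of each range is without KO replicate 3. The 2 neighbours of Lrrn4 called higher ranged from 2 to 4 without 1 library, and 0 were called with at least 10 counts in every library, a filter that removes Lrrn4, AU019990 and Rpl23a-ps4 by its construction.

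Same-numbered deviations correlated at -0.19, 0.28 and 0.30. WT1 and WT3 both correlated best with KO3, and WT2 with KO1. With 3 libraries per group these values cannot settle whether replicate numbers paired the mice, and the main fit used no pairing. With a replicate block, 580 genes were called higher and 217 lower, and 0 LRR genes in either direction.

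Depth limits Lrrn3 in all libraries and Lrrn4 in the WT, where counts are few.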
